A study of Mus musculus with 3 samples.

Results

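Grey-lethal (gl/gl) mice lack Ostm1, and the data compared DN1 thymic cells of gl/gl mice that carry an Ostm1 transgene under CD2 control (CD2-Ostm1 gl/gl) with DN1 cells of gl/gl mice without it. Both groups were Ostm1-/- at the endogenous gene, so the transgene was the labelled difference between them. All mice were of the 129sv/C3H strain and 19 days old. There were 3 RNA-seq libraries in all, 1 per genotype. Cells of 3 CD2-Ostm1 gl/gl mice were pooled for the first, cells of 3 gl/gl mice for the second, and cells of 2 wild type mice for the third, which is given here only for its values. The cells had been sorted as lineage-negative, CD44-positive and CD25-negative. Of 23348 gene lines in the table, 12343 were measured, meaning on an autosome and at 1 FPKM or more (fragments per kb of transcript, scaled to the size of the library) in at least 1 of the CD2-Ostm1 gl/gl and gl/gl libraries. With 1 library per genotype no difference has a replicate check, no test was possible, and every difference below compares 2 libraries.

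The DN1 gate holds the earliest thymic immigrants, multipotent cells that carry Kit and CD34 and have not committed to the T lineage. Which other cells it holds depends on the lineage markers stained for, which the labels do not name, and natural killer, dendritic and innate lymphoid cells can be among them. Ostm1 is the beta subunit of the lysosomal chloride-proton exchanger Clcn7, and loss of either protein gives severe osteopetrosis in mice because osteoclasts cannot resorb bone. The CD2 promoter and locus control region drive transgenes in T cells and other lymphoid cells, and are not known as a driver in osteoclasts.

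Differences are given as log2(FPKM + 1) in CD2-Ostm1 gl/gl minus log2(FPKM + 1) in gl/gl, on which the pseudocount of 1 makes differences of low genes smaller. A difference of 2-fold, in either direction, counts as a call. The step between the lowest values put a single fragment per kb at about 0.036 FPKM for the CD2-Ostm1 gl/gl library, 0.033 for gl/gl and 0.02 for wild type, and a transcript of 2 kb at 5 FPKM had about 250, 270 and 440 fragments in that order. At 1 FPKM it had about 50, 55 and 88. The libraries also differed in sex-linked RNA. Xist, the RNA of the inactive X, had 235 FPKM in CD2-Ostm1 gl/gl, 0.184 in gl/gl and 116 in wild type. The Y-linked Eif2s3y had 0.0395 FPKM with the transgene, 59.8 in gl/gl without it and 0.0338 in wild type. The gl/gl pool thus held male RNA and the CD2-Ostm1 gl/gl pool almost none, and for every result below the effects of sex and of the transgene cannot be told apart. Wild type also held almost no male RNA. A gene whose wild type value lay near the transgenic one, with gl/gl apart, thus followed the same split as sex. Such nearness does not separate the transgene from sex. Genes on X and Y were left out, 400 of them at 1 FPKM or more.

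The markers of the gate were checked first. Cd44, the marker selected for, had 64.7 FPKM in CD2-Ostm1 gl/gl against 109 in gl/gl, beside 66.4 in wild type. Il2ra, which encodes the CD25 selected against, had 4.03 FPKM in CD2-Ostm1 gl/gl, 11.7 in gl/gl and 5.94 in wild type. Kit, the stem cell factor receptor, had 102 FPKM with the transgene, 15.3 in gl/gl without it and 101 in wild type. Both gate genes were thus highest in gl/gl and Kit lowest there. Lineage genes were present in all 3 libraries: Cd3e had 57.7 FPKM in CD2-Ostm1 gl/gl against 107 in gl/gl, beside 77.3 in wild type. Itgam had 6.35 FPKM in CD2-Ostm1 gl/gl, 75.2 in gl/gl and 5.72 in wild type. Cd8a went the other way, with 33.5 FPKM in CD2-Ostm1 gl/gl, 7.83 in gl/gl and 32.7 in wild type. Cd4 lay close, with 22.5 FPKM in CD2-Ostm1 gl/gl against 26.5 in gl/gl, beside 21.9 in wild type. The 2 libraries named DN1 thus differed in the RNA of progenitors and of other cell types at once. In bulk RNA, fewer cells of a type and less RNA per cell cannot be told apart, and this holds for every group of genes below.

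Ostm1 (chr10:42678916-42702462, mm10) had 5.35 FPKM with the transgene, 0 in gl/gl without it and 19.6 in wild type. The CD2-Ostm1 gl/gl value was 27.4% of the wild type value. The gene was listed at 0 in the library that lacks both the endogenous gene and the transgene. Whether the transgene holds the whole annotated transcript is not given in the sources used here, and the FPKM of a shorter transcript would be scaled to too great a length. Clcn7, the partner of Ostm1, had 9.04 FPKM in CD2-Ostm1 gl/gl against 12.5 in gl/gl, beside 8.94 in wild type. The mouse gene Cd2 had 58.0 FPKM in CD2-Ostm1 gl/gl, 94.2 in gl/gl and 54.0 in wild type. The sample labels do not say whether the transgene's CD2 elements come from this gene. Neither Clcn7 nor Cd2 passed 2-fold. The other CLC exchangers of endosomes and lysosomes lay close together in both libraries, with all of Clcn3, Clcn4-2 and Clcn6 within 1.5-fold, and 26.0 FPKM in CD2-Ostm1 gl/gl against 33.0 in gl/gl for Clcn3.

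The neighbourhood of Ostm1 on chromosome 10 was read as a description. Both groups were gl/gl and shared the genomic interval that came with the gl allele, so its effect cannot be read from this comparison. Over all measured genes 6.53% were called higher and 9.99% lower. Within 2 Mb on each side, 22 genes were measured, Ostm1 included, and 2 were called higher and 1 lower. Besides Ostm1 these were Cep57l1, a centrosomal protein gene, with 10.2 FPKM with the transgene, 3.33 in gl/gl without it and 11.4 in wild type, and Prdm1, which encodes the repressor Blimp-1, with 1.07 FPKM in CD2-Ostm1 gl/gl against 3.29 in gl/gl, beside 0.928 in wild type. Sec63, a gene beside Ostm1, had 18.4 FPKM in CD2-Ostm1 gl/gl against 12.8 in gl/gl.

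Across the 12343 measured genes, 806 (6.53%) were called higher and 1233 (9.99%) were called lower in CD2-Ostm1 gl/gl than in gl/gl. The median difference was 0.02, and 64.2% of genes lay within 1.5-fold. At 4-fold, 151 genes were higher and 322 lower, and at 16-fold 30 were higher and 67 lower. Of the higher genes 37 were listed at 0 in gl/gl, and of the lower genes 53 were listed at 0 in CD2-Ostm1 gl/gl. Predicted genes, clones, small RNAs and joint entries made up 141 of the higher and 103 of the lower genes. The share of lower calls showed no steady trend with the level. It was greatest in the band from 100 to 1000 FPKM: of 714 genes whose higher value of both libraries lay there, 146 (20.4%) were lower and 51 (7.14%) higher. It was smallest among 3194 genes between 20 and 50 FPKM, of which 234 (7.33%) were lower and 143 (4.48%) higher. At 1000 FPKM or more 13.1% were lower, and between 2 and 5 FPKM 13.9%.

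**Figure D1:**
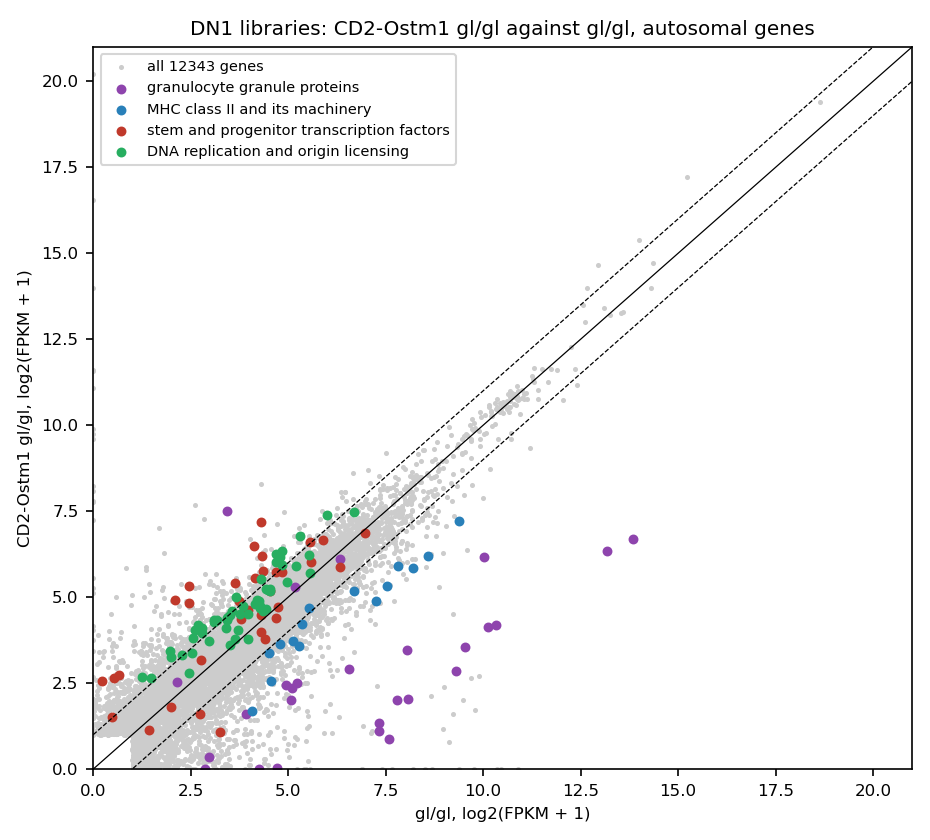
Each point is 1 of the 12343 measured autosomal genes, at its log2(FPKM + 1) in CD2-Ostm1 gl/gl (vertical axis) and in gl/gl (horizontal axis). The solid line marks equal values and the dashed lines 2-fold. Genes of granule proteins (purple) and MHC class II (blue) lie below the lower dashed line in most cases, and those of progenitor transcription factors (red) and DNA replication (green) lie above the solid line in most cases.

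To say which functions differed, 51 lists with 2010 entries were read, 12 of cell types and 39 of functions. Their 1806 measured entries covered 1612 genes, and held 162 of the 806 higher and 432 of the 1233 lower calls. In 36 lists more members were lower than higher, and in 12 more were higher than lower. The shares below are set beside 6.53% higher and 9.99% lower over all measured genes.

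**Figure D2:**
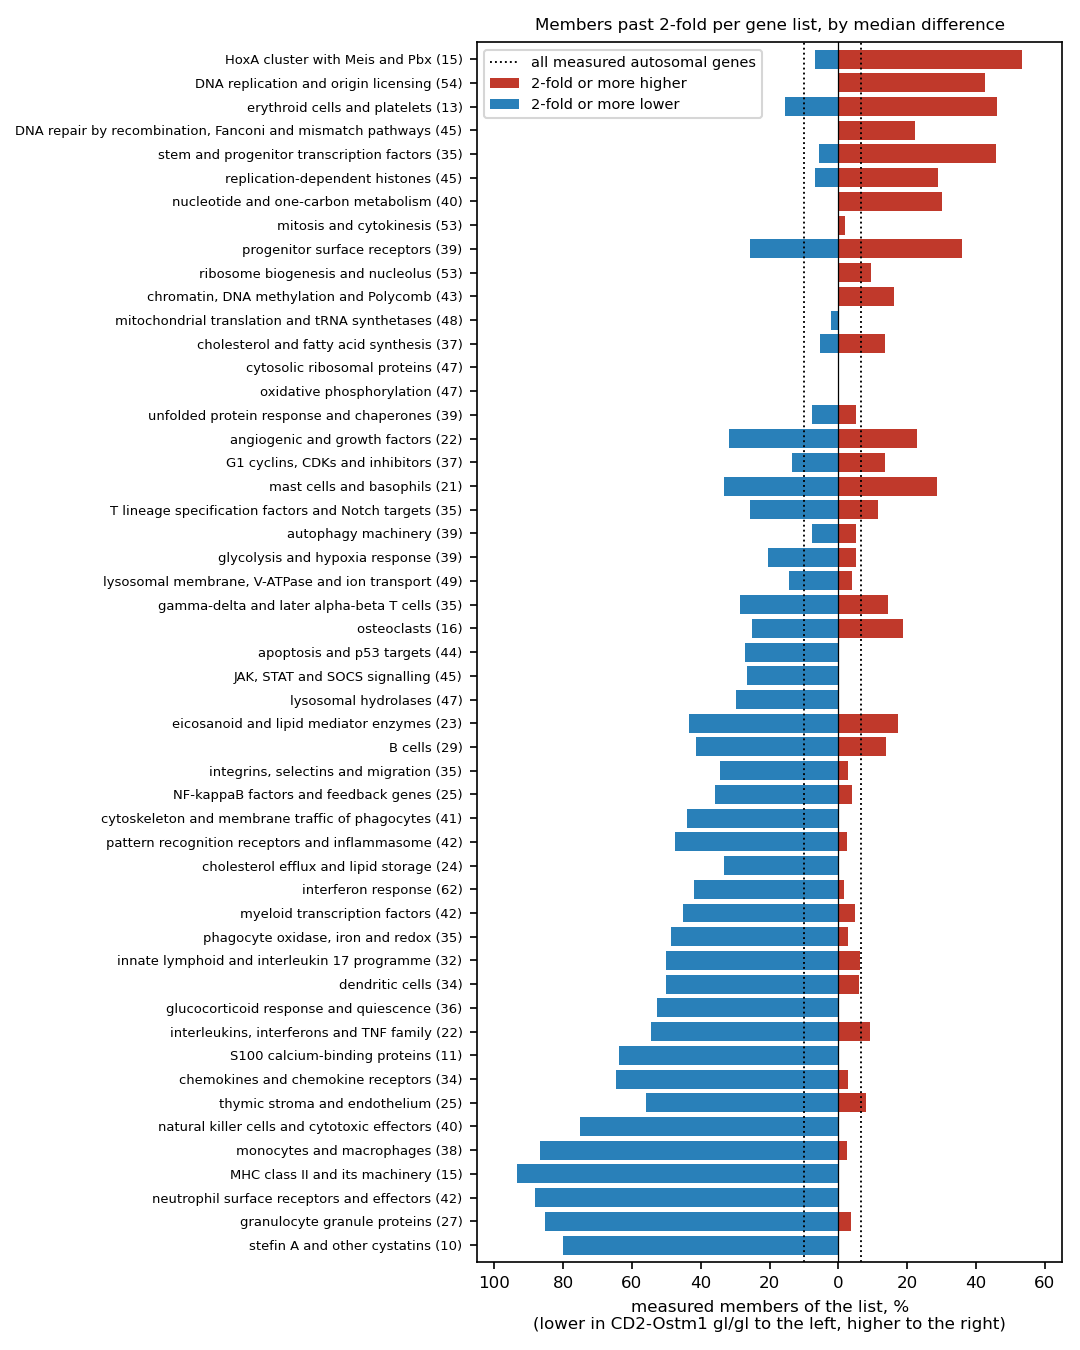
For each of 51 gene lists, the bars give the percentage of its measured members (number in brackets) called 2-fold or more lower in CD2-Ostm1 gl/gl (blue, to the left) or higher (red, to the right), with lists ordered by median log2 difference. The dotted lines mark the shares over all measured autosomal genes, 9.99% and 6.53%. Stefins, granule proteins, neutrophil receptors and MHC class II lie at the bottom with 80.0% or more of members lower, and the HoxA, replication and progenitor transcription factor lists lie near the top.

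Angpt1, Gpr56 and Egfl7 had the highest differences of the genes named. Angpt1 (chr15:42424725-42676795), which encodes the angiopoietin ligand of the receptor Tie2, had 127 FPKM in CD2-Ostm1 gl/gl, 2.24 in gl/gl and 132 in wild type, a difference of 5.30. Gpr56, an adhesion receptor of haematopoietic stem cells, had 204 FPKM with the transgene, 5.07 in gl/gl without it and 165 in wild type, a difference of 5.07. Egfl7, a secreted protein of endothelium whose gene is the host of a microRNA, had 77.3 FPKM in CD2-Ostm1 gl/gl against 2.51 in gl/gl, beside 77.1 in wild type, a difference of 4.48. In each of these 3 genes the gl/gl library held at most a few FPKM, and both other values were near each other. Over the 25 highest genes the differences ran between 3.13 and 5.30, and their differences from wild type, which share the CD2-Ostm1 gl/gl library, ran between -0.72 and 1.86.

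**Figure D3:**
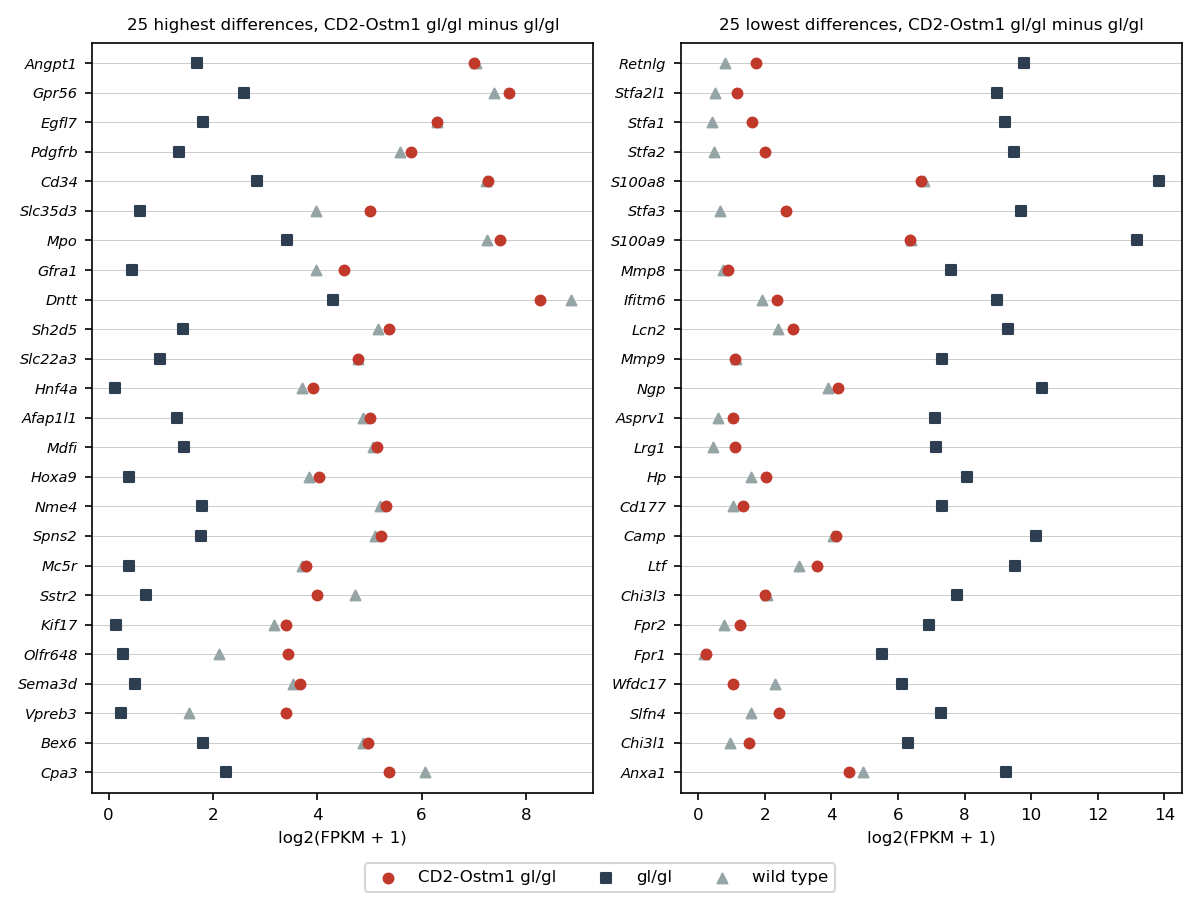
Log2(FPKM + 1) of the 25 genes with the highest (left panel) and the 25 with the lowest (right panel) difference, in the CD2-Ostm1 gl/gl (red circles), gl/gl (dark squares) and wild type (grey triangles) libraries, 1 library each. The gl/gl square is the lowest of the 3 symbols in every row on the left and the highest in every row on the right, from Angpt1 with a difference of 5.30 at the top left to Retnlg with -8.07 at the top right.

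Receptors on the progenitor surface differed in both directions. Of 39 measured members, 14 (35.9%) were higher and 10 (25.6%) lower, with a median of 0.42. Cd34 (chr1:194938821-194976959), the sialomucin used to mark progenitors, had 153 FPKM in CD2-Ostm1 gl/gl, 6.17 in gl/gl and 149 in wild type, a difference of 4.43. Pdgfrb, a receptor for platelet-derived growth factor, had 54.6 FPKM with the transgene, 1.53 in gl/gl without it and 46.8 in wild type. Gfra1, the co-receptor for the glial-derived neurotrophic factor GDNF, had 21.9 FPKM in CD2-Ostm1 gl/gl against 0.363 in gl/gl, beside 14.7 in wild type. Kit differed by 2.67, Cd93 by 2.81 and Flt3, the receptor of the FLT3 ligand that multipotent progenitors need, by 1.04. So the genes named here were all higher with the transgene.

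Of the 10 receptors that went the other way, Csf3r, Il7r and Csf2ra are given here. Csf3r, the receptor for the granulocyte colony-stimulating factor, had 2.29 FPKM in CD2-Ostm1 gl/gl, 35.1 in gl/gl and 1.57 in wild type. Il7r, the interleukin 7 receptor of lymphoid cells, had 67.5 FPKM with the transgene, 286 in gl/gl without it and 182 in wild type. Csf2ra, a chain of the receptor for GM-CSF, had 8.79 FPKM in CD2-Ostm1 gl/gl against 29.2 in gl/gl, beside 10.5 in wild type. For Il7r the wild type value lay between those of the other libraries, while for Csf3r and Csf2ra it lay beside CD2-Ostm1 gl/gl. Csf1r, the receptor of macrophages, differed little, with 17.6 FPKM in CD2-Ostm1 gl/gl against 22.05 in gl/gl.

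Transcription factors of stem and progenitor cells were higher in 16 of 35 measured cases (45.7%) and lower in 2 (5.71%), with a median of 0.78. Myb, needed for definitive blood formation, had 145 FPKM in CD2-Ostm1 gl/gl, 18.6 in gl/gl and 138 in wild type, a difference of 2.89. Mycn, a Myc family factor, had 39.1 FPKM with the transgene, 4.46 in gl/gl without it and 41.6 in wild type. Erg, an ETS factor of stem cells, had 29.5 FPKM in CD2-Ostm1 gl/gl against 3.32 in gl/gl, beside 31.2 in wild type. Sox4 differed by 2.36, the RNA-binding Igf2bp3, a gene of fetal-type progenitors, by 2.37, Tal1 by 2.33, Etv6 by 1.87 and Bcl11a by 1.77. The 2 lower genes were Id1, an inhibitor of E proteins, with 1.12 FPKM in CD2-Ostm1 gl/gl, 8.53 in gl/gl and 1.13 in wild type, and Mycl1, with 2.06 FPKM with the transgene, 5.71 in gl/gl without it and 4.62 in wild type. Factors shared by most blood cells lay close together, such as Ikzf1 with 116 FPKM in CD2-Ostm1 gl/gl against 124 in gl/gl and Bmi1 with 21.4 FPKM in CD2-Ostm1 gl/gl against 18.6 in gl/gl.

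The HoxA cluster, whose homeobox genes are active in multipotent blood cells, was higher over most of its length. From Hoxa3 to Hoxa10, 7 neighbouring genes on chromosome 6 were called higher, and Hoxa9 led with 15.3 FPKM in CD2-Ostm1 gl/gl against 0.315 in gl/gl, beside 13.3 in wild type, a difference of 3.63. Hoxa5 had 3.86 FPKM in CD2-Ostm1 gl/gl, 0.0762 in gl/gl and 3.60 in wild type. Hoxa7 had 4.20 FPKM with the transgene, 0.405 in gl/gl without it and 4.48 in wild type. Hoxa10 was listed at 0 in gl/gl, with 1.39 FPKM in CD2-Ostm1 gl/gl. Hoxa3 to Hoxa6 were given 1 shared interval in the table (chr6:52169062-52213597), so their reads may be hard to divide, and all but Hoxa9 were under 5 FPKM. At the ends of the cluster, Hoxa2 stayed under 1 FPKM in every library and Hoxa11 was listed at 0 in all 3. Meis1, a cofactor of HOXA9, had 11.2 FPKM in CD2-Ostm1 gl/gl against 1.71 in gl/gl, beside 8.79 in wild type, whereas the cofactor gene Pbx2 had 33.4 FPKM in CD2-Ostm1 gl/gl against 34.9 in gl/gl. Over the 15 measured genes of the cluster, Meis and Pbx families, 8 were higher and 1, Pbx3 with 0.588 FPKM in CD2-Ostm1 gl/gl against 2.19 in gl/gl, was lower.

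In the list of gamma-delta and later alpha-beta T cells 5 of 35 members were higher and 10 lower, with a median of -0.43 and sums of 2143 FPKM in CD2-Ostm1 gl/gl, 3407 in gl/gl and 2646 in wild type. The 5 higher were Dntt, Rag1, Rag2, Cd8a and Cd8b1. Dntt (chr19:41029275-41059525), the terminal transferase that adds bases at V(D)J joints, had 309 FPKM in CD2-Ostm1 gl/gl, 18.7 in gl/gl and 462 in wild type, a difference of 3.98. Rag1, a subunit of the recombinase, had 19.1 FPKM with the transgene, 5.72 in gl/gl without it and 29.7 in wild type. Rag2 had 5.36 FPKM in CD2-Ostm1 gl/gl against 0.487 in gl/gl, beside 6.59 in wild type. Cd8a had 33.5 FPKM in CD2-Ostm1 gl/gl, 7.83 in gl/gl and 32.7 in wild type. Cd8b1 had 34.0 FPKM with the transgene, 9.57 in gl/gl without it and 35.5 in wild type. These genes thus went against the balance of their list. From the B cell list, the surrogate light chain genes of pre-B cells, Vpreb1 and Igll1, and the related Vpreb3 were low in gl/gl. Vpreb1 had 3.01 FPKM in CD2-Ostm1 gl/gl against 0.0570 in gl/gl. Vpreb3 had 9.57 FPKM in CD2-Ostm1 gl/gl against 0.182 in gl/gl, while Igll1 had 3.12 FPKM in CD2-Ostm1 gl/gl and a listed 0 in gl/gl.

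Among genes of Notch signalling and T lineage specification, 4 of 35 were higher and 9 lower, with a median of -0.14. The 4 higher were Myb, Runx1 with 45.7 FPKM in CD2-Ostm1 gl/gl against 16.7 in gl/gl, Notch1, the receptor that starts T lineage commitment, with 137 FPKM in CD2-Ostm1 gl/gl against 41.4 in gl/gl, beside 108 in wild type, and Hes1, its direct target, with 37.3 FPKM in CD2-Ostm1 gl/gl, 5.15 in gl/gl and 42.7 in wild type. Other targets of Notch were lower, among them Dtx1, with 9.64 FPKM in CD2-Ostm1 gl/gl against 23.0 in gl/gl, and Ptcra, the pre-T cell receptor alpha chain, with 1.19 FPKM in CD2-Ostm1 gl/gl against 3.66 in gl/gl. The factors Tcf7, Gata3 and Bcl11b, which act in order during specification, lay within 1.5-fold. Tcf7 had 136 FPKM in CD2-Ostm1 gl/gl against 109 in gl/gl. Bcl11b had 31.7 FPKM in CD2-Ostm1 gl/gl against 33.6 in gl/gl. So Notch1 and Hes1 were higher without a like difference in most of the pathway's other genes.

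The angiogenic and growth factor list, which Angpt1 and Egfl7 lead, was mixed as a whole, with 5 of 22 members higher, 7 lower and a median of -0.01, whose sign changed with the settings. Hgf, hepatocyte growth factor, had 4.77 FPKM in CD2-Ostm1 gl/gl against 1.78 in gl/gl. Angptl2 had 8.22 FPKM in CD2-Ostm1 gl/gl against 2.90 in gl/gl. On the lower side, Bmp7 had 2.41 FPKM in CD2-Ostm1 gl/gl against 13.2 in gl/gl. Pdgfb, a ligand of the receptor Pdgfrb, had 4.27 FPKM with the transgene, 16.5 in gl/gl without it and 4.69 in wild type. Receptor and ligand of this pair thus differed in opposite directions.

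Genes of erythroid and megakaryocyte cells were few, with 13 of 27 list entries measured, and 6 were higher and 2 lower. Gfi1b, a repressor of both lineages, had 5.29 FPKM in CD2-Ostm1 gl/gl against 0.449 in gl/gl, beside 7.87 in wild type. Tfrc, the transferrin receptor, had 87.9 FPKM in CD2-Ostm1 gl/gl, 28.2 in gl/gl and 45.6 in wild type. The lower lines were the joint globin entries, and Hba-a1,Hba-a2 had 0.588 FPKM with the transgene, 10.9 in gl/gl without it and 3.70 in wild type. The progenitor genes and the globins of red cells thus went in opposite directions. Globin pairs are near-identical copies, and their reads cannot be divided.

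Mast cell and basophil genes also split, with 6 of 21 higher and 7 lower. Cpa3, a carboxypeptidase of mast cells that early progenitors also express, had 40.6 FPKM in CD2-Ostm1 gl/gl against 3.76 in gl/gl, beside 65.6 in wild type, while Hdc, the histamine-forming enzyme, had 0.895 FPKM in CD2-Ostm1 gl/gl, 35.0 in gl/gl and 1.31 in wild type. Gata2 had 1.86 FPKM with the transgene, 0.397 in gl/gl without it and 6.94 in wild type, and the basophil protease Mcpt8 had 1.23 FPKM in CD2-Ostm1 gl/gl against 0.0942 in gl/gl, beside 19.7 in wild type. For both the wild type value was the highest of the 3.

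DNA replication genes had an even direction, as did other lists such as MHC class II, where all 15 measured genes lay under 0. Of 54 measured genes, 23 (42.6%) were higher and 0 lower at 2-fold, 53 lay above 0, and the median was 0.92. The summed level was 1874 FPKM in CD2-Ostm1 gl/gl, 966 in gl/gl and 2065 in wild type. All 6 subunits of the MCM helicase, which opens the double strand, were called higher, from Mcm4, with 59.9 FPKM in CD2-Ostm1 gl/gl, 27.6 in gl/gl and 63.5 in wild type, to Mcm3, with 79.9 FPKM with the transgene, 27.8 in gl/gl without it and 91.5 in wild type. Mcm6 had 166 FPKM in CD2-Ostm1 gl/gl against 63.0 in gl/gl, beside 190.3 in wild type. The 6 differences lay between 1.09 and 1.49.

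Factors that load or fire origins behaved alike in part. Cdc6, a loader of the MCM helicase, had 9.76 FPKM in CD2-Ostm1 gl/gl, 2.88 in gl/gl and 10.2 in wild type. Uhrf1, which brings the maintenance methyltransferase to new DNA, had 75.3 FPKM with the transgene, 24.8 in gl/gl without it and 78.3 in wild type. In the GINS complex, part of the active helicase, Gins1 and Gins2 were called higher and Gins3 and Gins4 were not. Gins2 had 17.2 FPKM in CD2-Ostm1 gl/gl against 5.44 in gl/gl. Gins4 had 23.4 FPKM in CD2-Ostm1 gl/gl against 19.6 in gl/gl. Pcna, the sliding clamp, had 175 FPKM in CD2-Ostm1 gl/gl against 101 in gl/gl, beside 217 in wild type, a difference of 0.79. The 1 gene under 0 was Orc5, a subunit of the origin recognition complex, with 12.8 FPKM in CD2-Ostm1 gl/gl against 14.6 in gl/gl.

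The promoters of such genes are known to carry sites of E2F factors, and 3 are shown for helicase and loader genes named above. Each is the 150 bases before the RefSeq start site, 5′ to 3′ on the gene's strand, in GRCm38.p6, with matches to TTTCCCGC or TTTGGCGC on either strand in capitals. Mcm6 lies at chr1:128359706-128359855 on the minus strand, Cdc6 at chr11:98908001-98908150 on the plus strand and Mcm5 at chr8:75109359-75109508 on the plus strand. In all 3 the RefSeq start site differed from that of the interval given with the gene's FPKM values.
Mcm6: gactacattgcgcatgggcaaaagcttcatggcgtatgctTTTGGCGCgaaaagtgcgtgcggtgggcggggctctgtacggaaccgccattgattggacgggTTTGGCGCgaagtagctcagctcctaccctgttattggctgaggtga
Cdc6: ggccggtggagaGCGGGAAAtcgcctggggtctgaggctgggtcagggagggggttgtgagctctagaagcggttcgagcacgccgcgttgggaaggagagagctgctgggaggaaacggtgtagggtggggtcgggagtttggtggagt
Mcm5: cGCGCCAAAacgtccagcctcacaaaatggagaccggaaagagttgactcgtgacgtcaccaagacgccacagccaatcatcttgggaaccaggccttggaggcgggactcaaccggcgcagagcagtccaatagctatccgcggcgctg
In windows from 250 bases before to 50 bases after the start site, 13 of 45 replication genes with a promoter in RefSeq (28.9%) held such a match, against 444 of 27025 promoters of all genes (1.64%) and 287 of 9061 promoters of measured genes (3.17%). Other lists held such matches too, with 7 of 34 (20.6%) for DNA repair and 6 of 29 (20.7%) for the G1 list, whose direction was mixed. Mcm6 held 2 matches in the stretch shown. A match is a description of the letters and was not set against any binding data.

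Genes that feed replication followed. In nucleotide and one-carbon metabolism 12 of 40 (30.0%) were higher and 0 lower, with a median of 0.67. Shmt1, a serine hydroxymethyltransferase that makes folate-bound one-carbon units, had 21.8 FPKM in CD2-Ostm1 gl/gl, 5.39 in gl/gl and 20.3 in wild type. Phgdh, the first enzyme of serine synthesis, had 129 FPKM with the transgene, 38.1 in gl/gl without it and 131 in wild type. Paics, a bifunctional enzyme of purine synthesis, had 153 FPKM in CD2-Ostm1 gl/gl against 55.3 in gl/gl, beside 184 in wild type. In recombination, Fanconi and mismatch repair 10 of 45 (22.2%) were higher and 0 lower, led by the checkpoint kinase gene Chek1 with 13.2 FPKM in CD2-Ostm1 gl/gl, 3.27 in gl/gl and 12.9 in wild type. Brca2, a mediator of recombination, had 8.21 FPKM with the transgene, 2.34 in gl/gl without it and 6.12 in wild type.

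Mitosis and cytokinesis genes had the same direction with smaller differences. Of 53 measured, 49 lay above 0, the median was 0.57 and only Cenph, a kinetochore gene, passed 2-fold, with 9.09 FPKM in CD2-Ostm1 gl/gl against 2.83 in gl/gl, beside 8.76 in wild type. Mki67, the proliferation marker Ki-67, had 39.3 FPKM in CD2-Ostm1 gl/gl, 21.1 in gl/gl and 34.6 in wild type, a difference of 0.87. Top2a, the topoisomerase that separates sister chromatids, had 59.7 FPKM with the transgene, 31.7 in gl/gl without it and 75.3 in wild type, a difference of 0.89. The difference was thus smaller for the genes of mitosis than for those of S phase in these libraries, 0.57 against 0.92 as list medians. CCAAT boxes stood in 33 of 45 promoters of the mitosis list (73.3%), against 37.9% of all promoters and 38.5% of those of measured genes. Lists of other functions held them about as often, such as the unfolded protein response and chaperones with 23 of 32 (71.9%). For MHC class II it was 7 of 10 (70%).

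Cyclins, kinases and inhibitors of G1 were mixed, with 5 of 37 higher, 5 lower and a median of -0.06, whose sign changed with a setting. Cdk6 had 138 FPKM in CD2-Ostm1 gl/gl against 25.2 in gl/gl, beside 117 in wild type, a difference of 2.41, and its relative Cdk4 had 192 FPKM in CD2-Ostm1 gl/gl, 75.8 in gl/gl and 218 in wild type. Among their cyclin partners, Ccnd1 and Ccnd2 stayed under 2-fold, with 119 FPKM in CD2-Ostm1 gl/gl against 117 in gl/gl for Ccnd2, and Ccnd3 was lower, with 61.9 FPKM with the transgene, 133 in gl/gl without it and 70.7 in wild type. E2f1 had 12.8 FPKM in CD2-Ostm1 gl/gl against 5.39 in gl/gl. E2f3 had 14.5 FPKM in CD2-Ostm1 gl/gl against 4.96 in gl/gl. Of the inhibitors, Cdkn1b, which encodes p27, had 45.4 FPKM in CD2-Ostm1 gl/gl against 103 in gl/gl, beside 54.2 in wild type. Cdkn2d, of the INK4 family, had 29.1 FPKM in CD2-Ostm1 gl/gl, 78.7 in gl/gl and 31.8 in wild type. Mxd1, an antagonist of Myc, had 14.2 FPKM with the transgene, 62.4 in gl/gl without it and 13.6 in wild type.

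Of 45 replication-dependent histone genes 13 were higher and 3 lower, with a median of 0.74. Hist1h4f had 268 FPKM in CD2-Ostm1 gl/gl against 87.2 in gl/gl, beside 331 in wild type. Hist1h2bk had 25.9 FPKM in CD2-Ostm1 gl/gl, 3.60 in gl/gl and 19.4 in wild type. Hist1h3b had a listed 0 in CD2-Ostm1 gl/gl, against 5.87 FPKM in gl/gl, while wild type had 13.4. These are short transcripts of near-identical copies without poly(A) tails, so single values are uncertain. In chromatin regulation 7 of 43 were higher and 0 lower. Dnmt3b, a de novo DNA methyltransferase, had 43.7 FPKM with the transgene, 6.92 in gl/gl without it and 38.2 in wild type, while Dnmt3a, its relative, had 35.0 FPKM in CD2-Ostm1 gl/gl against 19.9 in gl/gl. Cbx2, a Polycomb subunit, had 21.6 FPKM in CD2-Ostm1 gl/gl against 5.77 in gl/gl, beside 21.2 in wild type. Tet1, which oxidises methylcytosine, had 8.91 FPKM in CD2-Ostm1 gl/gl, 2.11 in gl/gl and 7.55 in wild type.

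Of 53 ribosome biogenesis genes 5 were higher and 0 lower, with 49 above 0 and a median of 0.39. Nop58, a core protein of box C/D ribonucleoproteins, had 76.6 FPKM with the transgene, 36.5 in gl/gl without it and 88.7 in wild type. Its partner Nop56 had 102 FPKM in CD2-Ostm1 gl/gl against 50.1 in gl/gl. The E-box CACGTG, which Myc can bind, stood in 8 of 48 promoter windows of this list (16.7%), against 7.25% of all promoters and 10.3% of those of measured genes. Other lists held it more often, such as the lysosomal membrane list with 10 of 37 (27.03%). The ribosomal proteins themselves and oxidative phosphorylation gave 0 calls either way, among 47 genes each, with medians of 0.11 and 0.08. Every measured gene of both lists thus lay within 2-fold. Mitochondrial translation and tRNA synthetases gave 1 call of 48, Lars2, the mitochondrial leucyl-tRNA synthetase, with 237 FPKM in CD2-Ostm1 gl/gl against 1018 in gl/gl, beside 46.1 in wild type. Its wild type value was far under both.

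**Figure D4:**
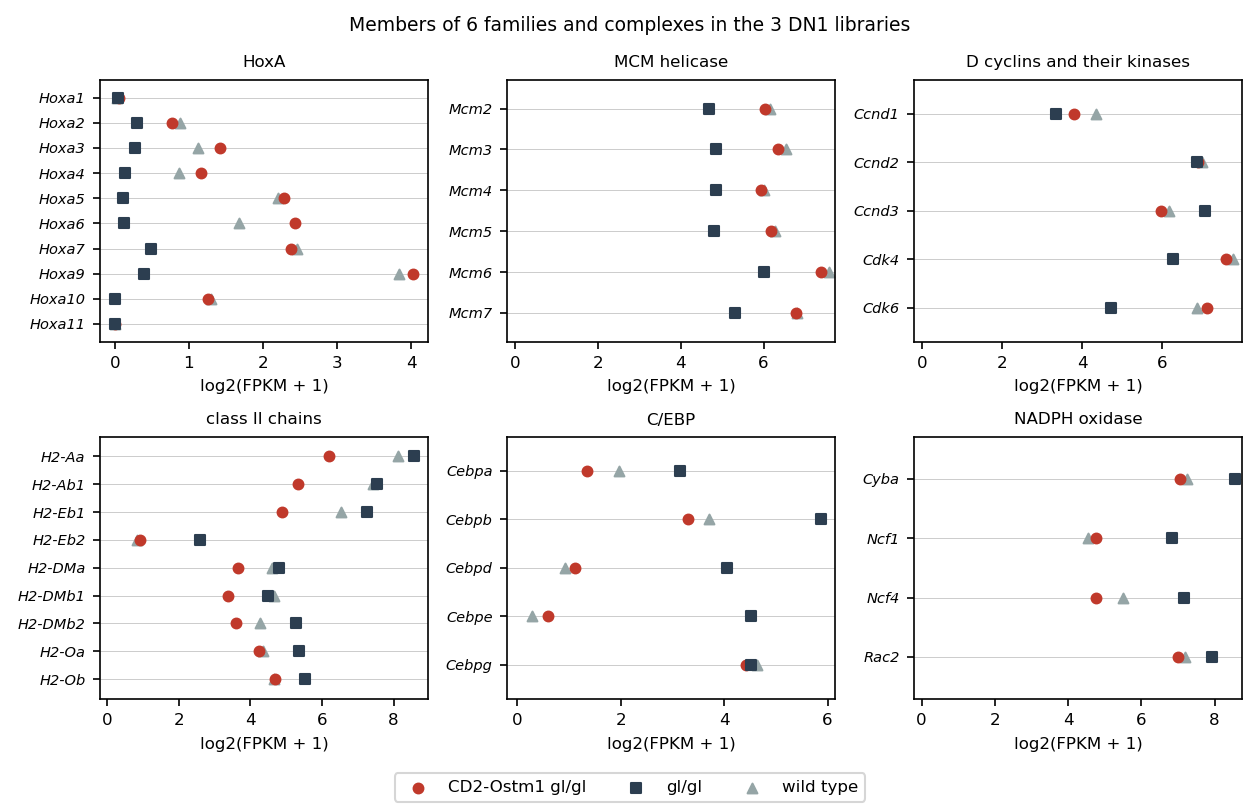
Log2(FPKM + 1) of members of 6 families or complexes in the CD2-Ostm1 gl/gl (red circles), gl/gl (dark squares) and wild type (grey triangles) libraries. The gl/gl square lies left of the red circle for all 6 MCM subunits and for Hoxa3 to Hoxa10, and right of it for all 9 class II chains and the 4 oxidase genes shown, while Ccnd2 and Cebpg nearly coincide.

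On the lower side, granule proteins of neutrophils and their precursors were lower in most cases. Of 27 measured genes, 23 (85.2%) were lower and 1 higher, with a median of -4.26, and their summed level was 641 FPKM in CD2-Ostm1 gl/gl, 30569 in gl/gl and 696 in wild type. The list also held S100a8 and S100a9, whose product calprotectin lies in the cytosol and not in granules. These genes made up most of the gl/gl sum. S100a8 (chr3:90669071-90670034), a subunit of calprotectin, had 103 FPKM in CD2-Ostm1 gl/gl, 14728 in gl/gl and 109.7 in wild type, a difference of -7.15. Its partner S100a9 had 80.7 FPKM with the transgene, 9344 in gl/gl without it and 82.6 in wild type. Of the secondary and tertiary granule proteins, Ltf, lactoferrin, had 10.8 FPKM in CD2-Ostm1 gl/gl against 736 in gl/gl, beside 7.12 in wild type. Lcn2, the siderophore-binding lipocalin, had 6.16 FPKM in CD2-Ostm1 gl/gl, 634 in gl/gl and 4.24 in wild type. Camp, the cathelicidin, had 16.7 FPKM with the transgene, 1126 in gl/gl without it and 15.6 in wild type. Mmp8, the neutrophil collagenase, had 0.843 FPKM in CD2-Ostm1 gl/gl against 191 in gl/gl, beside 0.663 in wild type. Mmp9, a gelatinase, had 1.16 FPKM in CD2-Ostm1 gl/gl, 159 in gl/gl and 1.19 in wild type. Thus S100a8 and S100a9 were above 80 FPKM in every library, while the 2 matrix metalloproteinases were near 1 FPKM outside gl/gl.

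Primary granule genes divided. Mpo, myeloperoxidase, which granulocyte and early multipotent progenitors also express, had 179.9 FPKM with the transgene, 9.71 in gl/gl without it and 152 in wild type, a difference of 4.08. Elane, neutrophil elastase of the same granule, had 0.287 FPKM in CD2-Ostm1 gl/gl against 6.82 in gl/gl, beside 0.424 in wild type. Prtn3, proteinase 3, had 2.02 FPKM in CD2-Ostm1 gl/gl, 14.01 in gl/gl and 1.94 in wild type. These protease genes lie in 1 shared interval of the table. Ctsg, cathepsin G, had 4.83 FPKM with the transgene, 3.43 in gl/gl without it and 9.16 in wild type, and did not pass 2-fold. So the peroxidase gene Mpo was higher with the transgene and the protease genes were lower or close.

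The C/EBP factors drive these genes during granulocyte maturation, and 3 promoters of granule genes are shown so that their letters can be compared. Matches to TTGCNNAA, the core of the palindromic C/EBP site, are in capitals. Ngp, neutrophilic granule protein, lies at chr9:110419658-110419807, Ltf at chr9:111019142-111019291 and Mmp8 at chr9:7558279-7558428, all on the plus strand of GRCm38.p6.
Ngp: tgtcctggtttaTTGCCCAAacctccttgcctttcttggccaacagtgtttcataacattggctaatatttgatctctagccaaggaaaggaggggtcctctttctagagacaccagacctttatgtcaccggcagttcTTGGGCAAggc
Ltf: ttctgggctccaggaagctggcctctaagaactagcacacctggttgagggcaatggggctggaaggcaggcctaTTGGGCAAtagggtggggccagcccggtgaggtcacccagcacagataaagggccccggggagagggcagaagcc
Mmp8: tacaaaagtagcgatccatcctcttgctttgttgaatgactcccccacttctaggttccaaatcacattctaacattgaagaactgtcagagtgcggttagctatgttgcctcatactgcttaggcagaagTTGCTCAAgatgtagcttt
Such a match stood in 8 of 22 promoter windows of the granule list (36.4%), against 10.8% of all promoters and 8.44% of those of measured genes. For stefins and other cystatins it was 2 of 6 (33.3%), and for mast cells and basophils 5 of 19 (26.3%). Ngp itself had 17.3 FPKM in CD2-Ostm1 gl/gl against 1277 in gl/gl, beside 14.1 in wild type. Of the factors themselves, Cebpe, the factor of late granulocytes, had 0.498 FPKM in CD2-Ostm1 gl/gl, 21.97 in gl/gl and 0.214 in wild type, a difference of -3.94. Cebpb, the factor of emergency granulopoiesis, had 8.82 FPKM with the transgene, 57.2 in gl/gl without it and 12.0 in wild type. Cebpa, which starts the lineage, had 1.55 FPKM in CD2-Ostm1 gl/gl against 7.80 in gl/gl, beside 2.91 in wild type. Cebpd had 1.16 FPKM in CD2-Ostm1 gl/gl against 15.6 in gl/gl. Cebpg, the ubiquitous member, had 20.4 FPKM in CD2-Ostm1 gl/gl against 21.9 in gl/gl. So 4 of the 5 family members were lower. Over 42 myeloid transcription factors, 19 were lower and 2 higher, Jun with 46.3 FPKM in CD2-Ostm1 gl/gl against 11.7 in gl/gl and Fosb with 18.3 FPKM in CD2-Ostm1 gl/gl against 4.22 in gl/gl.

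Surface receptors and effectors of neutrophils were lower in 37 of 42 cases (88.1%) and higher in 0, with a median of -2.78 and a summed level of 695 FPKM in CD2-Ostm1 gl/gl, 3988 in gl/gl and 746 in wild type. Retnlg, a resistin-like secreted protein, had 2.32 FPKM in CD2-Ostm1 gl/gl, 889.6 in gl/gl and 0.734 in wild type, the lowest difference of all named genes at -8.07. Fpr1, a receptor for bacterial formyl peptides, had 0.173 FPKM with the transgene, 44.7 in gl/gl without it and 0.124 in wild type. Its relative Fpr2 had 1.38 FPKM in CD2-Ostm1 gl/gl against 119.9 in gl/gl, beside 0.695 in wild type. Cxcr2, the receptor that draws neutrophils to chemokines, had 7.57 FPKM in CD2-Ostm1 gl/gl, 65.1 in gl/gl and 2.97 in wild type. Il1r2, a decoy receptor of interleukin 1, had 1.28 FPKM with the transgene, 43.4 in gl/gl without it and 1.01 in wild type. The Fcgr4 gene, an activating Fc receptor, had 0.132 FPKM in CD2-Ostm1 gl/gl against 19.97 in gl/gl, beside 0.239 in wild type. In each of these genes CD2-Ostm1 gl/gl was well under gl/gl.

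PU.1 is the ETS factor that many myeloid receptors depend on. The promoters of Csf3r (chr4:126024509-126024658) and Fcgr4 (chr1:171018776-171018925), both on the plus strand, are shown over the same 150 bases, with matches to GAGGAAG on either strand in capitals.
Csf3r: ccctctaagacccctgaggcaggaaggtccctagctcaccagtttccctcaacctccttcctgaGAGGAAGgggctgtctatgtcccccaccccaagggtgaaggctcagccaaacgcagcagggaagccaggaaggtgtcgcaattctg
Fcgr4: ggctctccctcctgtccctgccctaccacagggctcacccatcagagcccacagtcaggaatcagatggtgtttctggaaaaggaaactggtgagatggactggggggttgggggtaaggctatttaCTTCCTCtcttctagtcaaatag
Among neutrophil receptor genes, 12 of 35 promoter windows (34.3%) held this match, against 13.5% of all promoters and 13.9% of those of measured genes. In the granule list the share was greater, 11 of 22.

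The stefin A genes, cysteine protease inhibitors clustered on chromosome 16, differed evenly. In the list of stefins and other cystatins 8 of 10 measured members were lower and 0 higher, with a median of -7.12, the lowest of the 51 lists. Stfa1 had 2.05 FPKM in CD2-Ostm1 gl/gl, 599 in gl/gl and 0.344 in wild type. Stfa2 had 3.02 FPKM with the transgene, 716 in gl/gl without it and 0.399 in wild type. Stfa3 had 5.24 FPKM in CD2-Ostm1 gl/gl against 829 in gl/gl, beside 0.572 in wild type. Stfa2l1 had 1.24 FPKM in CD2-Ostm1 gl/gl against 498 in gl/gl. The 4 differences lay between -7.06 and -7.80, and the wild type values were under 1 FPKM. These genes are close copies, so reads may have been shared among them. S100 genes were lower in 7 of 11 cases, and besides the calprotectin genes S100a6 had 77.1 FPKM in CD2-Ostm1 gl/gl, 500.4 in gl/gl and 148 in wild type. S100a4 had 144 FPKM with the transgene, 319 in gl/gl without it and 369.7 in wild type.

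Ear2, Ear11, Ceacam10, Orm1 and Dhrs9 were among the genes at a listed 0 with the transgene and at 5 FPKM or more in gl/gl. Ear2, an eosinophil-associated ribonuclease, had 17.2 FPKM in gl/gl, with 0.575 in wild type, and Ear11 had 7.92 FPKM in gl/gl, with 0.449 in wild type. Ceacam10 had 18.1 FPKM in gl/gl and was at 0 in both other libraries. The acute phase gene Orm1 had 6.27 FPKM in gl/gl, and the retinol dehydrogenase family gene Dhrs9 had 9.64.

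Monocyte and macrophage genes were lower in 33 of 38 cases (86.8%), with a median of -1.69 and a summed level of 369 FPKM in CD2-Ostm1 gl/gl, 1695 in gl/gl and 498 in wild type. Cd14, the co-receptor for lipopolysaccharide, had 0.850 FPKM in CD2-Ostm1 gl/gl against 36.3 in gl/gl, beside 1.43 in wild type. Apoe, the apolipoprotein of macrophages, had 38.5 FPKM in CD2-Ostm1 gl/gl, 465 in gl/gl and 63.6 in wild type. The complement genes C1qa, C1qb and C1qc were near 20 FPKM in gl/gl and had 2.38, 2.18 and 1.89 FPKM in CD2-Ostm1 gl/gl. The 1 higher gene was the haemoglobin scavenger receptor Cd163, with 2.39 FPKM with the transgene, 0.395 in gl/gl without it and 2.26 in wild type. The only measured gene of the list at 0 with the transgene was Ms4a8a.

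Antigen presentation by MHC class II was lower throughout. Of 15 measured genes 14 (93.3%) were lower, none was above 0, and the median was -1.92. H2-Aa had 72.0 FPKM in CD2-Ostm1 gl/gl against 380.0 in gl/gl, beside 279.6 in wild type. H2-Ab1 had 39.5 FPKM in CD2-Ostm1 gl/gl, 183 in gl/gl and 170.1 in wild type. The invariant chain gene Cd74 had 148 FPKM with the transgene, 668 in gl/gl without it and 471 in wild type. For these 3 genes the wild type value was nearer to gl/gl than to CD2-Ostm1 gl/gl, unlike the granule genes. The summed level of the list was 532 FPKM in CD2-Ostm1 gl/gl, 2248 in gl/gl and 1506 in wild type. The peptide editors of the DM family were lower too, with 11.5 FPKM in CD2-Ostm1 gl/gl against 26.6 in gl/gl for H2-DMa, and H2-Ob, a chain of the DO inhibitor, was the 1 gene under 2-fold, with 24.8 FPKM in CD2-Ostm1 gl/gl against 45.4 in gl/gl, beside 24.2 in wild type.

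Dendritic cell genes were lower in 17 of 34 cases and higher in 2, and summed to 525 FPKM in CD2-Ostm1 gl/gl, 971 in gl/gl and 487 in wild type. Siglech, a lectin of plasmacytoid dendritic cells, had 19.0 FPKM in CD2-Ostm1 gl/gl, 69.3 in gl/gl and 6.199 in wild type. Irf8, a factor that dendritic cells and monocytes need, had 41.8 FPKM with the transgene, 141 in gl/gl without it and 59.6 in wild type. The higher genes were Flt3 and the thymus homing receptor gene Ccr9, with 54.9 FPKM in CD2-Ostm1 gl/gl against 18.9 in gl/gl, beside 33.6 in wild type. Naaa, an acid amidase, had 4.20 FPKM in CD2-Ostm1 gl/gl, 13.9 in gl/gl and 34.9 in wild type. Batf3 had 0.794 FPKM with the transgene, 2.45 in gl/gl without it and 5.69 in wild type. In Naaa and Batf3 the CD2-Ostm1 gl/gl library was the lowest of the 3.

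Genes of natural killer cells and cytotoxic effectors were lower in 30 of 40 cases and higher in 0, with a median of -1.27 and sums of 1210 FPKM in CD2-Ostm1 gl/gl, 3956 in gl/gl and 1409 in wild type. Ccl5, a chemokine stored by cytotoxic cells, had 81.3 FPKM in CD2-Ostm1 gl/gl against 761 in gl/gl, beside 76.6 in wild type. Tbx21, which encodes T-bet, had 10.8 FPKM in CD2-Ostm1 gl/gl, 55.0 in gl/gl and 11.5 in wild type. The activating receptor gene Ncr1 had 19.9 FPKM with the transgene, 71.9 in gl/gl without it and 12.4 in wild type. Perforin, Prf1, had 3.82 FPKM in CD2-Ostm1 gl/gl against 12.9 in gl/gl, beside 5.24 in wild type, and granzyme B, Gzmb, had 27.4 FPKM in CD2-Ostm1 gl/gl, 73.4 in gl/gl and 62.1 in wild type. For Gzmb the wild type value was near that of gl/gl, and for the other genes named it was near that of CD2-Ostm1 gl/gl. In the natural killer gene complex on chromosome 6, 6 neighbouring genes from Klre1 to Klrc1 were called lower with a median of -1.67, Klrd1 among them with 52.0 FPKM with the transgene, 188 in gl/gl without it and 61.2 in wild type. Genes of this complex include close copies.

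Innate lymphoid genes were lower in 16 of 32 cases and higher in 2, and summed to 1246 FPKM in CD2-Ostm1 gl/gl, 2539 in gl/gl and 1976 in wild type. Id2, the E protein inhibitor these cells depend on, had 108 FPKM in CD2-Ostm1 gl/gl against 441 in gl/gl, beside 232 in wild type. Il1rl1, the receptor for interleukin 33, had 0.451 FPKM in CD2-Ostm1 gl/gl, 8.76 in gl/gl and 3.50 in wild type. The higher 2 were Kit and Sox13, a factor of gamma-delta T cells, with 35.4 FPKM with the transgene, 8.53 in gl/gl without it and 24.9 in wild type. B cell genes were lower in 12 of 29 cases and higher in 4, which were Rag1, Vpreb1, Vpreb3 and Igll1. The B cell list summed to 519 FPKM in CD2-Ostm1 gl/gl, 1038 in gl/gl and 578 in wild type. Cd79a had 16.3 FPKM in CD2-Ostm1 gl/gl against 57.3 in gl/gl, beside 7.90 in wild type. Ms4a1, which encodes CD20, had 13.8 FPKM in CD2-Ostm1 gl/gl, 29.8 in gl/gl and 7.77 in wild type. For both of these genes the wild type value was the lowest of the 3, and CD2-Ostm1 gl/gl stood in between.

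Among later T cell genes, the GIMAP GTPases on chromosome 6 were lower in 5 of 8 cases, from Gimap3 with 64.1 FPKM with the transgene, 262 in gl/gl without it and 47.7 in wild type to Gimap8 with 44.0 FPKM in CD2-Ostm1 gl/gl against 91.1 in gl/gl. Gimap1, which did not pass 2-fold, had 97.5 FPKM in CD2-Ostm1 gl/gl against 129.6 in gl/gl. Ly6c2, shared by monocytes and lymphocytes, had 75.3 FPKM in CD2-Ostm1 gl/gl against 405 in gl/gl, beside 84.0 in wild type, and the kinase Zap70 of the T cell receptor had 50.1 FPKM in CD2-Ostm1 gl/gl against 105 in gl/gl. Epithelial and stromal genes of the thymus were lower in 14 of 25 cases and higher in 2, Pdgfrb and Esam. Their summed level was 382 FPKM in CD2-Ostm1 gl/gl, 646 in gl/gl and 472 in wild type. Krt18, a keratin of thymic epithelium, had 4.65 FPKM in CD2-Ostm1 gl/gl, 42.2 in gl/gl and 12.5 in wild type. Krt5, another, had 0.325 FPKM with the transgene, 8.09 in gl/gl without it and 4.02 in wild type. The stromal chemokine gene Cxcl12 had 0.805 FPKM in CD2-Ostm1 gl/gl against 11.2 in gl/gl, beside 2.31 in wild type. The part that these and the other cell types above had in the differences between lists of functions was not tested. A run of 5 keratin genes on chromosome 15 was among the neighbours called lower together.

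Interferon response genes were lower in 26 of 62 cases (41.9%) and higher in 1, with 58 under 0 and a median of -0.90. Ifit3 had 6.03 FPKM in CD2-Ostm1 gl/gl, 47.1 in gl/gl and 5.65 in wild type. Irf7 had 33.8 FPKM with the transgene, 126 in gl/gl without it and 35.2 in wild type. Rsad2, the antiviral enzyme viperin, had 2.90 FPKM in CD2-Ostm1 gl/gl against 14.6 in gl/gl, beside 1.29 in wild type. Slfn1 had 15.7 FPKM in CD2-Ostm1 gl/gl, 96.6 in gl/gl and 20.3 in wild type. The related Slfn4 had 4.37 FPKM with the transgene, 154 in gl/gl without it and 2.03 in wild type. The 1 higher gene was Ifi203, with 56.2 FPKM in CD2-Ostm1 gl/gl against 25.9 in gl/gl, beside 43.7 in wild type. The type II interferon gene itself, Ifng, had 4.87 FPKM in CD2-Ostm1 gl/gl, 15.4 in gl/gl and 4.53 in wild type.

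Interferon regulatory factors bind repeats of GAAA, and the promoters of Ifit1 (chr19:34640739-34640888, plus strand) and Rsad2 (chr12:26456453-26456602, minus strand) are shown over the same 150 bases, with matches to AANNGAAA on either strand in capitals. Both carry 2 matches.
Ifit1: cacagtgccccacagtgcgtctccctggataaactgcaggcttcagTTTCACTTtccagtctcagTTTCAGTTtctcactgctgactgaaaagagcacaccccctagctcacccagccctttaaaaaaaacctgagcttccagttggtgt
Rsad2: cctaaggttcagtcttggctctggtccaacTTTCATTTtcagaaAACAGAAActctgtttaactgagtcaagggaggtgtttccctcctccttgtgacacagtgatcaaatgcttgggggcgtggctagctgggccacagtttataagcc
This short pattern stood in 35 of 46 promoter windows of the interferon list (76.1%), against 24.1% of all promoters and 18.2% of those of measured genes. For sensors of microbes it was 20 of 35 (57.1%), and for natural killer genes 17 of 32 (53.1%). Ifit1 had 10.8 FPKM with the transgene, 40.2 in gl/gl without it and 9.16 in wild type.

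**Figure D5:**
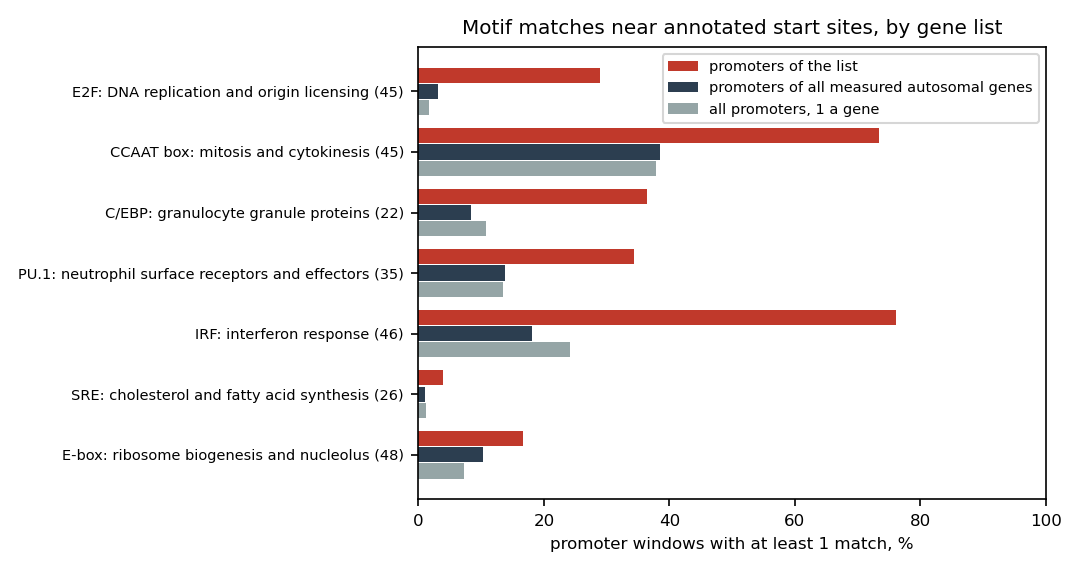
For 7 motifs, each with the gene list named beside it and its number of promoters in brackets, the bars give the percentage of promoter windows (250 bases before to 50 after the start site) with at least 1 match on either strand, in the list (red), in all measured autosomal genes (dark) and in all 27025 promoters (grey). Each row shows 1 list, and its bar is longer than those of measured genes and of all promoters, from 3.85% for the sterol element to 76.1% for the interferon element.

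Cytokines and chemokines were lower more often than higher. Of 22 interleukin, interferon and TNF family ligands 12 were lower and 2 higher. Il1b had 0.215 FPKM in CD2-Ostm1 gl/gl against 20.05 in gl/gl, beside 0.710 in wild type. Lta, a lymphotoxin, had 2.72 FPKM in CD2-Ostm1 gl/gl, 10.6 in gl/gl and 3.87 in wild type. The higher 2 were Il12a, with 9.71 FPKM with the transgene, 2.47 in gl/gl without it and 11.1 in wild type, and Il15, with 6.33 FPKM in CD2-Ostm1 gl/gl against 2.23 in gl/gl. Of 34 chemokines and their receptors 22 (64.7%) were lower and 1 higher, which was Ccr9, and Ccr1 had 0.642 FPKM in CD2-Ostm1 gl/gl against 30.8 in gl/gl, beside 0.739 in wild type, while Xcl1, made by natural killer cells, had 45.3 FPKM in CD2-Ostm1 gl/gl, 259.7 in gl/gl and 65.2 in wild type. The TNF locus on chromosome 17 gave 5 neighbouring lower genes, Aif1, Lst1, Ltb, Tnf and Lta.

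Sensors of microbes were lower in 20 of 42 cases and higher in 1, the adaptor gene Ticam2. The lectin receptor Clec7a, which binds fungal glucans, had 1.19 FPKM with the transgene, 11.6 in gl/gl without it and 1.64 in wild type, and Clec4a1 to Clec4d formed a run of 5 lower neighbours. Of 25 NF-kappaB factors and feedback genes 9 were lower and 1, Ier3 with 21.6 FPKM in CD2-Ostm1 gl/gl against 7.49 in gl/gl, was higher, and Tnfaip2 had 0.488 FPKM in CD2-Ostm1 gl/gl against 15.8 in gl/gl, beside 2.61 in wild type. In JAK, STAT and SOCS signalling 12 of 45 were lower and 0 higher. The SOCS family divided, since Socs1, Socs2, Socs3 and Cish, which cytokines induce, were lower, and Socs4 to Socs7 stayed under 2-fold. Socs3 had 16.6 FPKM in CD2-Ostm1 gl/gl, 55.6 in gl/gl and 22.3 in wild type. Socs4 had 22.8 FPKM in CD2-Ostm1 gl/gl against 22.8 in gl/gl.

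Genes of the glucocorticoid response and of quiescence were lower in 19 of 36 cases (52.8%) and higher in 0, with a median of -1.01. Klf9 had 1.71 FPKM with the transgene, 16.4 in gl/gl without it and 3.45 in wild type. Sgk1 had 7.09 FPKM in CD2-Ostm1 gl/gl against 30.3 in gl/gl, beside 10.8 in wild type. The metallothionein Mt1 had 0.818 FPKM in CD2-Ostm1 gl/gl, 8.41 in gl/gl and 3.25 in wild type. Apoptosis and p53 target genes were lower in 12 of 44 cases and higher in 0. Bbc3, which encodes the death activator PUMA, had 4.29 FPKM with the transgene, 28.8 in gl/gl without it and 5.54 in wild type. Pmaip1, which encodes NOXA, had 1.51 FPKM in CD2-Ostm1 gl/gl against 5.65 in gl/gl.

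Genes of the phagocyte oxidase were lower. Cyba, the membrane subunit on an autosome, had 131 FPKM in CD2-Ostm1 gl/gl against 373 in gl/gl, beside 152 in wild type. Among the cytosolic subunits, Ncf1 had 26.0 FPKM in CD2-Ostm1 gl/gl, 113 in gl/gl and 22.3 in wild type. Ncf4 had 25.9 FPKM with the transgene, 141 in gl/gl without it and 44.5 in wild type. Rac2, the GTPase that blood cells share, stayed under 2-fold, with 126 FPKM in CD2-Ostm1 gl/gl against 243 in gl/gl, beside 146 in wild type. In the wider list of oxidase, iron and redox genes 17 of 35 were lower and 1, Tfrc, was higher. The iron exporter Slc40a1 had 0.585 FPKM in CD2-Ostm1 gl/gl, 17.6 in gl/gl and 1.69 in wild type, and glutathione reductase, Gsr, had 19.3 FPKM with the transgene, 135 in gl/gl without it and 22.9 in wild type.

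Lipid mediator enzymes were lower in 10 of 23 cases and higher in 4. In leukotriene synthesis Alox5, the lipoxygenase that starts it, had 0.224 FPKM in CD2-Ostm1 gl/gl against 19.8 in gl/gl, beside 1.79 in wild type. Its helper Alox5ap had 67.6 FPKM in CD2-Ostm1 gl/gl, 303 in gl/gl and 77.9 in wild type. Ltc4s, the synthase of leukotriene C4, went the other way with 6.16 FPKM with the transgene, 1.15 in gl/gl without it and 5.29 in wild type, as did Pla2g4a, the phospholipase that frees arachidonic acid, with 20.9 FPKM in CD2-Ostm1 gl/gl against 2.36 in gl/gl, beside 23.6 in wild type. The steps of this pathway thus differed in direction between the libraries.

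Lysosomal genes were read closely because Ostm1 is a lysosomal protein. Hydrolases were lower in 14 of 47 cases (29.8%) and higher in 0, with a median of -0.62. Ctsh, cathepsin H, had 10.7 FPKM in CD2-Ostm1 gl/gl, 64.3 in gl/gl and 14.5 in wild type. Ctss, the cathepsin that trims the invariant chain, had 58.8 FPKM with the transgene, 224 in gl/gl without it and 96.2 in wild type. Ctsb, cathepsin B, had 30.1 FPKM in CD2-Ostm1 gl/gl against 92.6 in gl/gl, beside 37.4 in wild type. All 3 cathepsins were thus lower. Genes of the lysosomal membrane, the proton pump and ion transport were lower in 7 of 49 cases (14.3%) and higher in 2, with a median of -0.36. The higher 2 were Ostm1 and Mcoln3, a mucolipin channel, with 7.83 FPKM in CD2-Ostm1 gl/gl, 1.38 in gl/gl and 7.48 in wild type. Tcirg1, the pump subunit of osteoclasts, had 67.9 FPKM in CD2-Ostm1 gl/gl against 65.3 in gl/gl. Atp6v0a1, its relative, had 2.85 FPKM with the transgene, 10.5 in gl/gl without it and 2.70 in wild type. Autophagy genes were lower in 3 of 39 cases and higher in 2, shares under those of all genes.

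Osteoclast genes were mixed, with 3 of 16 higher and 4 lower. Ostm1 itself was among the higher genes, and its direction was set by the genotypes. Acp5, the tartrate-resistant phosphatase, had 22.8 FPKM in CD2-Ostm1 gl/gl against 80.9 in gl/gl, beside 20.2 in wild type, and Mmp9 was lower as given above. Car2, carbonic anhydrase II, had 48.4 FPKM in CD2-Ostm1 gl/gl, 18.0 in gl/gl and 68.1 in wild type. Snx10, a sorting nexin whose loss gives osteopetrosis, had 39.1 FPKM with the transgene, 16.99 in gl/gl without it and 38.1 in wild type. Nfatc1, the main factor of osteoclast formation, had 39.4 FPKM in CD2-Ostm1 gl/gl against 51.9 in gl/gl. Tnfrsf11a, the receptor RANK, had 1.00 FPKM in CD2-Ostm1 gl/gl against 1.84 in gl/gl. RANK was thus low in both libraries.

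Lipid and sugar metabolism showed smaller counts. In cholesterol and fatty acid synthesis 5 of 37 were higher and 2 lower. Sqle, squalene epoxidase, had 11.8 FPKM in CD2-Ostm1 gl/gl against 2.63 in gl/gl, beside 14.4 in wild type. Fads2, a fatty acid desaturase, had 38.0 FPKM in CD2-Ostm1 gl/gl, 7.97 in gl/gl and 44.7 in wild type, while Scd1, another desaturase, had 2.39 FPKM with the transgene, 10.4 in gl/gl without it and 5.48 in wild type. The sterol element TCACNCCAC, a site of SREBP factors, stood in 1 of 26 promoter windows of this list (3.85%), against 1.21% of all promoters, and in 2 of 36 (5.56%) for the lysosomal hydrolases. Cholesterol efflux and storage genes were lower in 8 of 24 cases and higher in 0, and Abca1, the efflux pump, had 18.0 FPKM in CD2-Ostm1 gl/gl against 63.4 in gl/gl, beside 22.8 in wild type. Glycolysis and hypoxia genes were lower in 8 of 39 cases and higher in 2, led by Hk3, the myeloid hexokinase, with 0.507 FPKM in CD2-Ostm1 gl/gl, 24.7 in gl/gl and 0.628 in wild type, and Pygl, a glycogen phosphorylase, with 9.69 FPKM with the transgene, 101 in gl/gl without it and 10.9 in wild type. Stress chaperones were near the background with 2 of 39 higher and 3 lower, and Hsp90aa1 had 232 FPKM in CD2-Ostm1 gl/gl against 101 in gl/gl.

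Integrins, selectins and migration genes were lower in 12 of 35 cases and higher in 1, the tenascin-binding integrin Itga9, with 12.3 FPKM in CD2-Ostm1 gl/gl against 1.06 in gl/gl, beside 14.8 in wild type. Phagocyte cytoskeleton and traffic genes were lower in 18 of 41 cases and higher in 0. Anxa1, annexin A1, had 21.9 FPKM in CD2-Ostm1 gl/gl, 601 in gl/gl and 29.8 in wild type. Its values outside gl/gl were near each other.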

How the data were processed

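RNA of sorted DN1 thymic cells was sequenced (TruSeq libraries, Illumina HiSeq, per the labels), with 1 library per genotype from pooled mice. Per the submitters' processing notes, TopHat2 2.0.10, Cuffdiff 2.2.1 and mouse build mm10 were used. Annotation, strand setting and scaling between libraries: not given in the sources used here. FPKM was taken as the unit of the deposited values, since Cuffdiff writes it, although the table's header names none. Without read counts, depth comes from the steps between the lowest values, assuming fragments of 200 bases, and covers counting error only. Cuffdiff joins overlapping genes into 1 interval, and without a stated strand setting overlapping and antisense genes cannot be told apart.

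Of 23352 lines, 1 was empty, 3 had a cell with no number and 23348 were used, 98 of them naming more than 1 gene. Genes on X and Y (1067 lines) were left out. Differences are of log2(FPKM + 1), over genes that reached 1 FPKM in either library, and a call is 2-fold. Genes listed at 0 in a library were counted in calls and medians, but only their values are printed, not a difference. The counting code was tested on simulated data. Starts in the table count from 0 and are printed from 1. Python 3.11.15, pandas 2.3.3, numpy 2.4.6 and matplotlib 3.10.9 were used. Promoters are RefSeq's, GRCm38.p6, 1 a gene: 16289 table lines matched by symbol, 9061 of them measured autosomal genes. For 6164 of these 9061 the RefSeq start site was also the start of the gene's interval in the table. Motifs were searched on both strands. None lies whole within another, and matches can overlap at their ends.

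The comparison, the gene lists, the motifs and the rule for names were chosen with earlier results of these data known, so no list is independent evidence. The rule named Ostm1, Clcn7 and Cd2, the 25 highest and 25 lowest differences at 5 FPKM or more in 1 of both libraries (predicted genes, clones, small RNAs, pseudogenes and joint entries left out), up to 6 members of each list by absolute difference, small families in full, and members that spell out a small count or went against their list. Any other gene was named after its values were seen. Alternatives were other pseudocounts, filters, rescalings and thresholds, X and Y kept, and predicted and joint entries left out. Of 13 list entries with no line, 45 on X or Y and 146 below 1 FPKM nothing is said. A few genes that the rule would name are not reported here.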

Additional observations from a re-analysis of the deposited data

How the results depend on the processing

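No paired analysis was possible because each genotype had 1 library, and for the same reason no replicate could be left out. Against 806 higher and 1233 lower genes, a pseudocount of 0.1 gave 1233 higher genes and 1562 lower ones, and a pseudocount of 5 gave 289 higher and 613 lower. A threshold of 1.5-fold gave 2071 higher and 2348 lower genes, and a threshold of 4-fold gave 151 and 322. Under the other 7 alternatives both counts stayed within 1.5 times those reported, and more genes were lower than higher under all 11. The higher genes made up 39.5% of calls as reported, and between 31.9% and 46.9% under the alternatives. Rescaling to an equal upper quartile moved the CD2-Ostm1 gl/gl library by 0.08 on the log2 scale and gave 944 higher and 1151 lower genes. List medians kept their sign under all 11 alternatives in 46 of 51 lists. The exceptions were the G1, HoxA, angiogenic, erythroid and mast cell lists, and the HoxA median of 1.03 became -0.052 over genes at 5 FPKM or more, a filter that leaves Hoxa9 alone of the cluster. The log2 differences of Clcn7, Cd2 and the 25 highest and 25 lowest genes kept their sign under all 11, which was fixed beforehand. Pseudocounts cannot change a sign, filters and thresholds leave the difference as it is, and the rescalings moved it by at most 0.08. No other single gene was recomputed. Depth limits the low genes: at 1 FPKM, about 50 fragments in CD2-Ostm1 gl/gl and 55 in gl/gl stood behind a transcript of 2 kb, and a gene listed at 0 may have been missed.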

Other observations

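Along the chromosomes, 17 runs of 4 or more neighbouring measured genes were called in the same direction, 3 higher and 14 lower, and no expected number was computed. The HoxA run on chromosome 6 and the Klr, S100, Stfa, Cd300 and class II runs are families of related function. The longest higher run besides them held 8 genes on chromosome 7 (chr7:104058656-104235152), from Olfr643 to Trim6, and is made up largely of olfactory receptor genes, which are not known for a role in thymic progenitors. Within it, Olfr648 had 9.88 FPKM in CD2-Ostm1 gl/gl, 0.210 in gl/gl and 3.32 in wild type. Another lower run held Tnfsf13b, Irs2, Col4a1, Col4a2 and Rab20 on chromosome 8, with a median of -1.47. The genes of olfactory receptor runs are close copies, and their values are uncertain.

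The shares of calls differed moderately between the 19 autosomes. Higher genes made up between 4.63% (chromosome 4) and 10.1% (chromosome 6) of measured genes, and lower genes between 6.53% (chromosome 12) and 12.7% (chromosome 6). The median difference lay between -0.06 on chromosome 19 and 0.15 on chromosome 13.

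Several of the highest genes have main roles known outside blood. Hnf4a, a nuclear receptor of liver and gut, had 14.1 FPKM in CD2-Ostm1 gl/gl, 0.0903 in gl/gl and 12.0 in wild type. Mc5r, a melanocortin receptor, had 12.8 FPKM in CD2-Ostm1 gl/gl, 0.318 in gl/gl and 12.0 in wild type. Sstr2, a somatostatin receptor, had 15.0 FPKM in CD2-Ostm1 gl/gl, 0.641 in gl/gl and 25.3 in wild type. Kif17, a kinesin motor, had 9.61 FPKM in CD2-Ostm1 gl/gl, 0.102 in gl/gl and 8.04 in wild type. In all 4 the gl/gl library was under 1 FPKM and both others were at 8 FPKM or more. Spns2, an exporter of sphingosine 1-phosphate, had 36.3 FPKM in CD2-Ostm1 gl/gl, 2.42 in gl/gl and 33.3 in wild type, and the organic cation transporter Slc22a3 had 26.5, 0.972 and 26.6 FPKM in those libraries.

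In Vpreb3 and Gpr97, CD2-Ostm1 gl/gl stood apart from both other libraries. Vpreb3 had 9.57 FPKM in CD2-Ostm1 gl/gl, 0.182 in gl/gl and 1.92 in wild type. Gpr97, an adhesion receptor of the Gpr56 group, had 39.7 FPKM in CD2-Ostm1 gl/gl, 7.35 in gl/gl and 11.5 in wild type.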
